A study of Rattus norvegicus with 15 samples.

Results

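Epb41l3, Add3 and Actn4 encode proteins of the membrane skeleton and of the actin network beneath the plasma membrane, and each had 1 probe on the rat arrays analysed here. They are 3 of the 401 genes that could be named among 26857 probes, and they were picked by gene symbol. All named probes belong to a table of 1219 probes that the authors deposited, whose rule of choice is unknown here. Which arrays that rule used is unknown too, so no comparison below is shown to be independent of it. Epb41l3 and Add3 had stood out earlier in these same data because their signals were far higher in saline-treated tubules than in saline-treated whole kidneys, so that difference is given below as a description with no test. Among named genes ranked by that difference Epb41l3 had rank 3 at 6.31 on the log2 scale and Add3 rank 8 at 3.50, just inside a limit of 8 genes, with Slc7a9 just outside it at 3.50. Actn4 is not among the 8 largest differences of any pair of groups, and which value led to its choice is unknown here.

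The samples were proximal tubules after saline, 2 mg/kg or 10 mg/kg cisplatin, and whole kidneys after 10 mg/kg cisplatin or saline, with 3 arrays per group and 15 in all. All groups came from male Wistar/ST rats aged 8 weeks that had received their injection intraperitoneally, cisplatin (CDDP, a platinum drug that injures the kidney) or the same volume of saline. Tubules were isolated under a microscope, and digoxigenin-labelled cRNA was hybridised to a 1-colour Rat Genome Survey array. Neither the time from injection to sampling nor any pooling of animals is stated in the labels. They do not tie each array to its own animal either, and a p-value here reflects array-to-array spread, which may be technical.

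The membrane skeleton is a meshwork of spectrin and short actin filaments that lies under the plasma membrane, holds membrane proteins in place and gives an epithelial cell its shape. Protein 4.1 family members such as the product of Epb41l3, called protein 4.1B, bind membrane proteins through a FERM domain and tie them to spectrin and actin. Adducins such as gamma-adducin, the product of Add3, cap the fast-growing ends of actin filaments and recruit spectrin to them. Alpha-actinin-4, the product of Actn4, crosslinks actin filaments and is known in human kidneys for a role in podocytes, the filtration cells of the glomerulus. In the proximal tubule this cortical network anchors the transporters of the brush border and of the basolateral membrane.

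Levels are log2 signals after quantile normalization. Deposited intensities had array medians between 201 and 470. No background measure was used here, so a dim signal is not known to be above background and a fold is a ratio of signals. Arrays correlated at 0.867 to 0.967 within groups and 0.769 to 0.946 between groups, and saline whole kidney replicate 3 had the lowest mean correlation with the others, 0.819. Of 12 proximal tubule markers with a named probe, 6 were called higher and 2 lower in tubules than in whole kidneys after 10 mg/kg (limma, adjusted p below the threshold of 0.05), where 5.85% of all probes were called higher and 4.72% lower. After saline again 6 were called higher and 2 lower, beside 2.12% and 1.46% of all probes, so the markers of the labelled cells ran both ways. Their summed normalized signal after 10 mg/kg overlapped, at 320000 to 414000 in tubules and 286000 to 416000 in whole kidneys. After saline it was 1570000 to 2150000 in tubules and 883000 to 1010000 in whole kidneys. Tissue goes together with the isolation of the tubules here, so their parts in a difference cannot be told apart. No defining marker of podocytes, endothelium, thick limb and distal tubule, collecting duct, stroma or red cells had a named probe, and 2 leukocyte markers, C1qa and C1qc, did. In whole tissue fewer cells of a type and less RNA per cell cannot be told apart.

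Epb41l3 lies on chromosome 9 between 116502864 and 116707274 and Add3 on chromosome 1 between 262152722 and 262260504 in the RefSeq annotation of build GRCr8. Actn4 lies on chromosome 1 between 93310294 and 93379369. RefSeq promoter windows of 300 bases, 250 before the start site and 50 after it, were at hand for Epb41l3 and Add3, the members whose signals were highest in tubules and moved most alike. They are shown 5′ to 3′ on the plus strand at chr9:116583010-116583309 and chr1:262152518-262152817, and the capitals mark 2 motifs. Those are the 6-letter half-site of HNF1 factors, GTTAAT or its reverse complement ATTAAC, and the half-site of nuclear receptors such as HNF4A, AGGTCA or TGACCT. Both factor families are known regulators of proximal tubule genes.
Epb41l3: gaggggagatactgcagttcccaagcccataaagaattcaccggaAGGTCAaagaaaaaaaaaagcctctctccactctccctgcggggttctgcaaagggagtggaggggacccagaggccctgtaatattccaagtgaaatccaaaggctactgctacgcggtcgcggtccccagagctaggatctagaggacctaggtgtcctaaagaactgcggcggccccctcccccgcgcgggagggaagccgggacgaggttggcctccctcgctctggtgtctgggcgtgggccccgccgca
Add3: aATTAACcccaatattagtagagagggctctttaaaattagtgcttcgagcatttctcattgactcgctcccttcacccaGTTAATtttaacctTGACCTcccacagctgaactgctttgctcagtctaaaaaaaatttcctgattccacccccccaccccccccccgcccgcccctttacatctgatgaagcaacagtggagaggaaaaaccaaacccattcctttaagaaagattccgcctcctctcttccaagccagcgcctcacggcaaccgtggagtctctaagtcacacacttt

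The Epb41l3 window held 1 nuclear receptor half-site, beginning at position -205 from the start site, and no HNF1 half-site in these letters. The Add3 window held 1 nuclear receptor half-site at position -156 and HNF1 half-sites at -170 and -249. The motifs do not overlap. Of all 33469 rat promoter windows of this length, 16.2% held the nuclear receptor half-site and 7.45% the HNF1 half-site, so neither match is rare. The windows differed in composition, with 60.3% G and C bases for Epb41l3 and 48.0% for Add3. The start site used for Epb41l3 lies 80396 bases inside the annotated gene, and that of Add3 lies 46 bases inside.

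**Figure D1:**
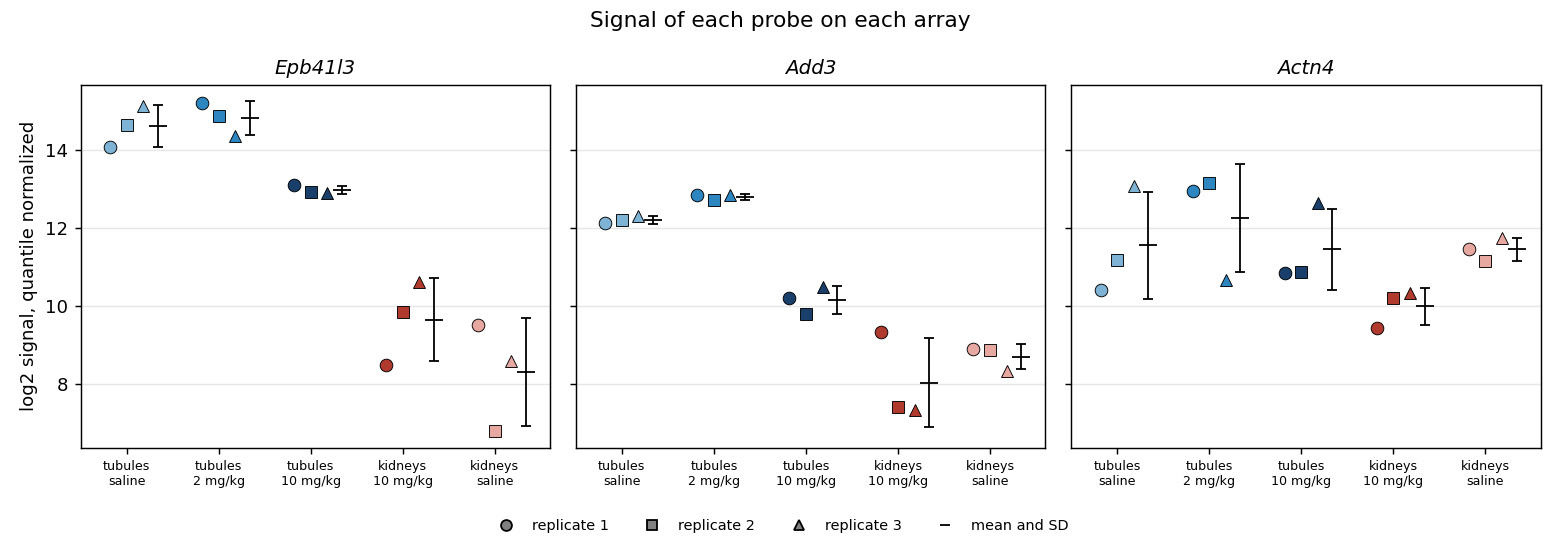
The vertical axis is the log2 signal of Epb41l3, Add3 and Actn4 on each of 15 arrays, quantile normalized; the horizontal axis gives the 5 groups, marker shape the replicate, and the black bar the mean with its SD (n = 3). Epb41l3 and Add3 were lower in all 3 tubule arrays after 10 mg/kg than in the other tubule arrays, and Actn4 was spread widely within each tubule group.

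Epb41l3, the protein 4.1B gene, was bright in tubules at every dose and dim in whole kidneys. Its log2 signal was 14.06, 14.64 and 15.13 in saline tubules, 15.20, 14.87 and 14.35 in tubules after 2 mg/kg, and 13.10, 12.93 and 12.88 in tubules after 10 mg/kg. In whole kidneys it was 8.49, 9.84 and 10.61 after 10 mg/kg and 9.51, 6.79 and 8.59 after saline. The 3 tubule arrays at 10 mg/kg lay below all other tubule arrays and above all kidney arrays, and the kidney groups overlapped. The kidney signals lay between the 55.3 and 79.2 percentiles of all probes after 10 mg/kg and between the 20.2 and 68.2 percentiles after saline. Ordered by mean, the groups ran from tubules at 2 mg/kg (14.81 ± 0.43, SD, n = 3) through saline tubules (14.61 ± 0.53), tubules at 10 mg/kg (12.97 ± 0.11) and kidneys at 10 mg/kg (9.65 ± 1.07) to saline kidneys (8.30 ± 1.38). The first pair and the last pair in that order overlapped array by array, and their members were not told apart.

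Between the doses, Epb41l3 differed by -1.84 ± 0.63 (SE) on the log2 scale in tubules at 10 mg/kg over 2 mg/kg, a comparison that uses no saline array (limma adjusted p = 0.116). The arrays did not overlap, as was the case with lower signal at 10 mg/kg for 13% of 26601 probes. That SE pools the spread of all 5 groups, which for Epb41l3 was largest in whole kidneys. With the arrays of these 2 doses alone the limma adjusted p was 0.0313. The difference passed the threshold under 6 of 9 other ways of processing, with median centring at -2.17 (limma adjusted p = 0.0444) and with an intensity trend at -1.84 (limma adjusted p = 0.0237) among them. The 6 include the series table, where 956 of 1219 probes were called. They also include no scaling, where the differences of all probes shifted by a median of -0.21. Over all probes 1711 were called in the main fit and 1010 without scaling. Array weights and an intensity trend, also among the 6, called 3395 and 2535. Over all 9 the limma adjusted p ran between 0.00127 and 0.151, and leaving out 1 array at a time gave values between -2.07 and -1.64 that all missed the threshold. Against saline tubules, the tubules at 10 mg/kg had -1.64 ± 0.63 (limma adjusted p = 0.184). The saline tubule arrays took part in the choice of Epb41l3 for its high signal there. Values that passed were -2.33 without scaling (limma adjusted p = 0.0416) and -1.96 with the authors' series table (limma adjusted p = 0.00312). In this pair no scaling shifted the differences of all probes by a median of -0.34, and 967 of the 1219 series table probes were called. Over 9 alternatives the limma adjusted p of Epb41l3 ran between 0.00312 and 0.251, and with the compared groups alone it was 0.0766. The tubules at 2 mg/kg had 0.20 ± 0.63 against the same saline arrays, with a 95% interval of -1.16 to 1.55 (limma adjusted p = 1).

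Set against whole kidneys, Epb41l3 was 9.99-fold higher in tubules after 10 mg/kg, 3.32 ± 0.63 on the log2 scale (limma adjusted p = 0.00403). The arrays of this pair did not overlap, as with higher signal in tubules for 14.1% of probes. This pair shares no array with the saline pair that chose the gene, and 5.85% of all probes were called higher in it. The value lay between 2.74 and 3.80 when any 1 of the 6 arrays was left out, and each passed. In the saline pair the difference was 6.31 ± 0.63, a ratio of signals of 79.5. Of the 12 proximal tubule markers, 1 had a larger difference than Epb41l3 in the saline pair and 2 in the 10 mg/kg pair. Those were Slc5a2, the glucose cotransporter gene of the early proximal tubule, in both pairs and Slc7a9, an amino acid transporter gene, after 10 mg/kg.

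In whole kidneys Epb41l3 stood at 1.35 ± 0.63 after 10 mg/kg over saline, with a 95% interval of -0.01 to 2.71 (limma adjusted p = 0.247), against -1.64 in tubules. Without saline whole kidney replicate 2, the array with the lowest signal, it was 0.60. The saline whole kidney arrays took part in the choice of Epb41l3 for its low signal there, so this difference is not independent of the choice. The effect of 10 mg/kg in tubules minus that in whole kidneys was -2.99 ± 0.89. It equals the tissue difference after 10 mg/kg minus the saline tissue difference that chose the gene, and is given as a description with no test. In that contrast 10 of 26601 probes, 0.0376%, were called.

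Add3, the gamma-adducin gene, was also highest in tubules, and it fell clearly after 10 mg/kg. Its log2 signal was 12.11, 12.19 and 12.29 in saline tubules, 12.83, 12.70 and 12.83 in tubules after 2 mg/kg, and 10.19, 9.78 and 10.48 in tubules after 10 mg/kg. These were the tightest groups of any member, with an SD of 0.09 after saline and 0.07 after 2 mg/kg (n = 3). Whole kidneys had 9.34, 7.42 and 7.32 after 10 mg/kg and 8.89, 8.88 and 8.32 after saline. The tubule arrays at 10 mg/kg lay below the other tubule arrays and above every kidney array, and the kidney groups overlapped because replicate 1 after 10 mg/kg exceeded all saline arrays.

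Between the doses Add3 fell, with -2.63 ± 0.46 (SE) on the log2 scale for 10 mg/kg over 2 mg/kg in tubules. Its mean signal was 6.21-fold lower (limma adjusted p = 0.00281). The arrays did not overlap, as with lower signal at 10 mg/kg for 13% of probes. In that comparison 3.77% of probes were called lower. It passed under all 9 alternatives, with values between -3.23 and -2.58, and without any 1 of the 6 arrays, between -2.80 and -2.45. Against saline tubules Add3 fell by 2.05, with an SE of 0.46 (limma adjusted p = 0.0154), where 3.36% of probes were called lower and 11.4% had lower signal with no overlap. The saline arrays took part in the choice of Add3 for its high signal there, so this fall is not independent of the choice. The call was lost when saline tubule replicate 3 was left out, at -2.00 (limma adjusted p = 0.0560), and when replicate 2 at 10 mg/kg was, at -1.86 (limma adjusted p = 0.0633). Over 9 alternatives that adjusted p ran between 9e-05 and 0.0291.

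At 2 mg/kg every Add3 array exceeded every saline array, as 6.55% of probes did in that comparison, and the difference of 0.59 ± 0.46 had a limma adjusted p of 1. Its 95% interval ran between -0.39 and 1.56. By limma 0 of 26601 probes (0%) were called in this pair, 903 (3.39%) had an unadjusted p under 0.05, and the series table over its own probes gave 23 calls. The saline arrays are shared by both dose comparisons.

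In tubules over whole kidneys after 10 mg/kg Add3 was 4.37-fold higher, 2.13 ± 0.46 on the log2 scale (limma adjusted p = 0.00801). These arrays were not part of the saline pair, and 5.85% of all probes were called higher. The values without 1 array lay between 1.77 and 2.78 and each passed, while fitting the 6 arrays of this pair alone gave the same difference with a limma adjusted p of 0.103. Over the 9 alternatives that adjusted p ran between 0.00057 and 0.103. In the saline pair the difference was 3.50 ± 0.46, a ratio of signals of 11.3. In whole kidneys 10 mg/kg over saline gave -0.67 ± 0.46 for Add3 (limma adjusted p = 0.448). Without replicate 1 at 10 mg/kg, the array above the saline group, it was -1.33 and passed (limma adjusted p = 0.0368), so 1 array decided that result, and over 9 alternatives the adjusted p ran between 0.197 and 0.795. The saline kidney arrays took part in the choice of Add3 too. The effect in tubules minus that in whole kidneys was -1.38 ± 0.64, a description with no test because it contains the saline pair that chose the gene.

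**Figure D2:**
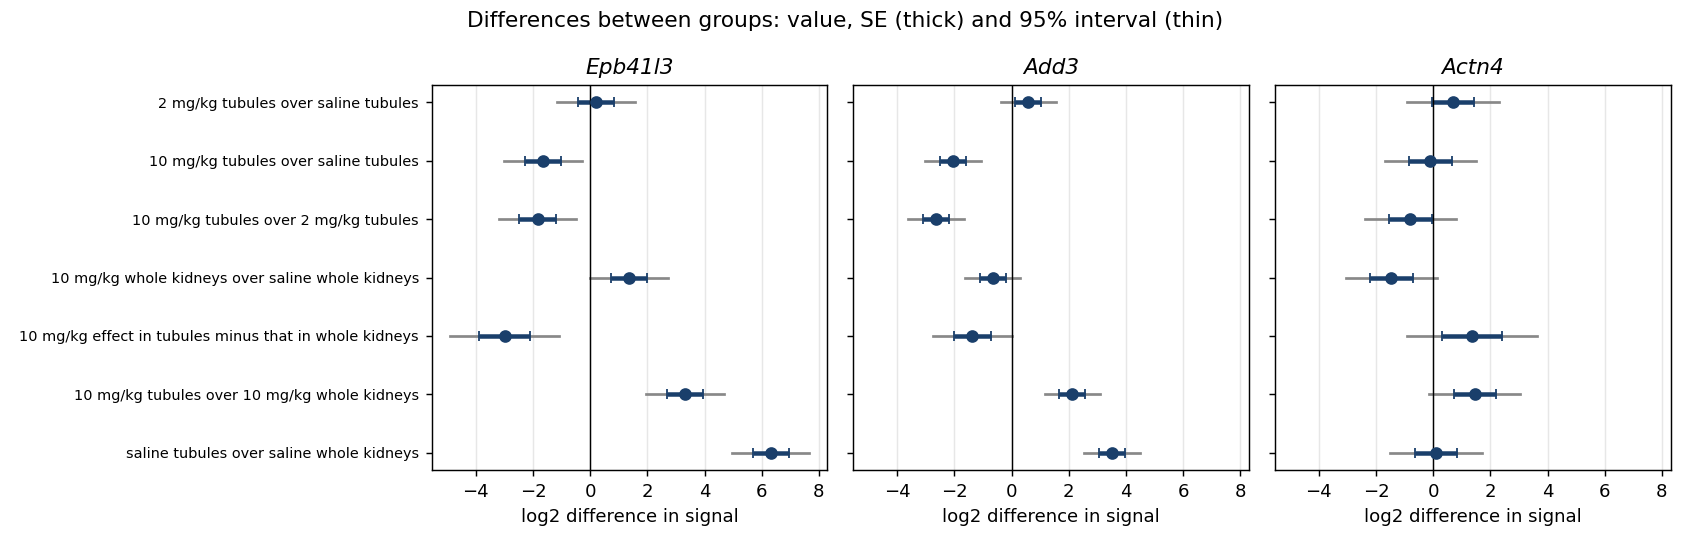
The horizontal axis is the log2 difference in signal for each of 7 comparisons, listed down the page, in Epb41l3, Add3 and Actn4; points are values, thick bars the SE of the limma fit and thin bars the 95% interval. The intervals of Add3 for 10 mg/kg in tubules lie below 0 against saline and against 2 mg/kg, whereas those of Actn4 cross 0 in all 7 comparisons; the saline pair at the bottom and, for Epb41l3 and Add3, the difference in effect that contains it are descriptions.

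Actn4, the alpha-actinin-4 gene, did not pass the threshold in any of the 6 comparisons tested, and its tubule arrays were split within every group. Its log2 signal was 10.40, 11.17 and 13.07 in saline tubules, 12.94, 13.14 and 10.65 in tubules after 2 mg/kg, and 10.84, 10.86 and 12.63 in tubules after 10 mg/kg. Replicate 3 after saline, replicates 1 and 2 after 2 mg/kg and replicate 3 after 10 mg/kg were high, and the other 5 tubule arrays were low, so the 3 tubule groups overlapped. Whole kidneys were far tighter, at 9.44, 10.21 and 10.32 after 10 mg/kg and 11.46, 11.15 and 11.74 after saline. There the groups did not overlap, with every array lower after 10 mg/kg, as for 12.7% of probes.

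The residual SD of Actn4 was 1.02 on the log2 scale, above that of 99.5% of 1749 probes whose mean level lay within 0.5 of its own, where the median was 0.35. For Epb41l3 the residual SD was 0.84, above 98.9% of 1419 such probes, and for Add3 it was 0.56, above 71.6% of 2250. The mean level is that over all 15 arrays, which for Epb41l3 falls between its tubule and its kidney levels. Among all probes 88.3% had a smaller residual SD than Actn4, 72.7% than Epb41l3 and 35.3% than Add3. The limma differences of Actn4 were -0.10 ± 0.75 for 10 mg/kg over saline in tubules, 0.70 ± 0.75 for 2 mg/kg over saline and -0.80 ± 0.75 for 10 mg/kg over 2 mg/kg, with limma adjusted p of 0.974, 1 and 0.684. Leaving out 1 array moved these widely. The first turned sign and lay between -0.70 and 0.66, the second lay between 0.13 without saline replicate 1 and 1.49 without 2 mg/kg replicate 3, and the third between -1.60 without 2 mg/kg replicate 3 and -0.35 without 2 mg/kg replicate 2. In whole kidneys 10 mg/kg over saline gave -1.46 ± 0.75, with a 95% interval of -3.06 to 0.14 (limma adjusted p = 0.292, between 0.0510 and 0.385 over 9 alternatives). That SE pools the spread of all 5 groups, which was largest in tubules, and with the 6 kidney arrays alone the limma adjusted p was 0.116.

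Tubules over whole kidneys gave 1.46 ± 0.75 for Actn4 after 10 mg/kg (limma adjusted p = 0.264), without overlap, as with higher signal for 14.1% of probes. With the values of the series table over its own probes it passed, at 1.68 (limma adjusted p = 0.0487), and over 9 alternatives the adjusted p ran between 0.0487 and 0.290. The saline pair stood at 0.10 ± 0.75. The effect in tubules minus that in whole kidneys was 1.36 ± 1.05 (limma adjusted p = 0.695). The interval of each of these values allows differences of over 1 log2 unit, and none of them shows that Actn4 stayed level.

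The complement genes C1qa and C1qc, which macrophages of the kidney express, moved against Actn4 from array to array in saline and 2 mg/kg tubules. C1qa was at 12.30, 12.15 and 11.35 in saline tubules and at 11.53, 11.75 and 12.26 after 2 mg/kg. C1qc was at 12.06, 11.53 and 10.48 in saline tubules and at 10.72, 10.62 and 11.48 after 2 mg/kg. In those 6 arrays the 3 with high Actn4 had the 3 lowest signals of both genes. At 10 mg/kg C1qa was at 12.66, 13.80 and 12.67 and C1qc at 11.85, 12.85 and 12.19, and the array with high Actn4 was not the lowest in either gene.

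These 2 of 8 listed leukocyte markers were the ones with a named probe, and neither was at 0. Their summed normalized signal ran from 4040 to 9330 in saline tubules, from 4640 to 7750 after 2 mg/kg and from 10200 to 21600 after 10 mg/kg. In whole kidneys it was 9990 to 14600 after 10 mg/kg and 3480 to 5230 after saline. The sum was thus higher where Add3 and Epb41l3 were lower in tubules, though neither C1qa nor C1qc passed there. At 10 mg/kg over saline in tubules C1qa had 1.11 (limma adjusted p = 0.153) and C1qc 0.94 (limma adjusted p = 0.292). In whole kidneys the sum was also higher after 10 mg/kg, where Epb41l3 stood at 1.35 and Add3 at -0.67 without passing. The part of this sum in any member's result was not tested.

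**Figure D3:**
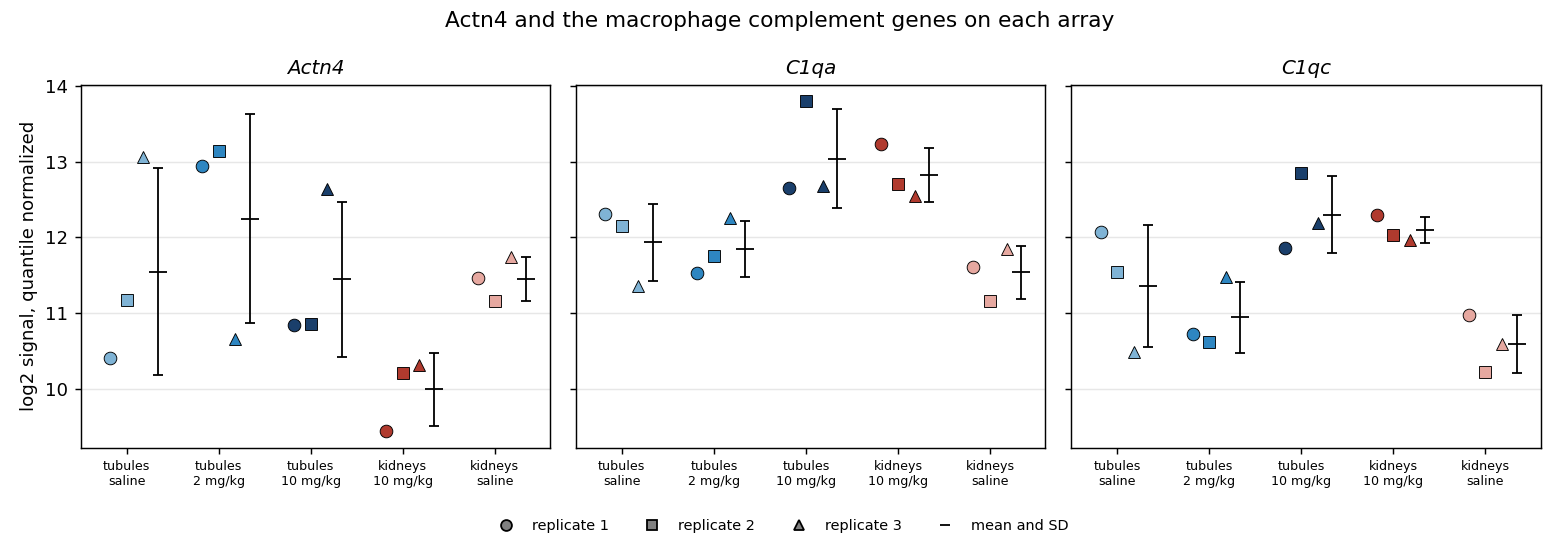
The vertical axis is the log2 signal of Actn4, C1qa and C1qc on each array, quantile normalized; groups are on the horizontal axis, marker shape is the replicate and the black bar the mean with its SD (n = 3). In saline tubules replicate 3 is the highest array for Actn4, at 13.07, and the lowest for C1qa, at 11.35, and C1qc, at 10.48.

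Across the 15 arrays Epb41l3 and Add3 correlated at r = 0.847, Epb41l3 and Actn4 at 0.478, and Add3 and Actn4 at 0.501. These values, and those that follow, describe arrays that share groups and normalization. Among 397 other named genes with a value on every array the most like Epb41l3 were Slc4a4, the basolateral bicarbonate cotransporter gene (r = 0.980), Slc5a2 (r = 0.979) and Slc7a7, a basolateral amino acid transporter gene (r = 0.969). The least like were Lgals1, the galectin-1 gene (r = -0.840), and S100a11, an S100 protein gene (r = -0.796).

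Slc5a2 and Slc4a4 had much the same run of differences as Epb41l3, which follows from picking them by correlation over these same arrays. The same holds for the genes most like Add3 and Actn4 below. For 10 mg/kg over 2 mg/kg in tubules they had -2.11 ± 0.69 (limma adjusted p = 0.0968) and -1.69 ± 0.42 (limma adjusted p = 0.0256), beside -1.84 for Epb41l3. In whole kidneys at 10 mg/kg over saline they had 1.12 ± 0.69 (limma adjusted p = 0.397) and 0.53 ± 0.42 (limma adjusted p = 0.530), beside 1.35.

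For Add3 the most like were Ddc, the dopa decarboxylase gene (r = 0.964), Nrep (r = 0.952) and Slc34a3, a renal phosphate transporter gene (r = 0.952), and the least like were again S100a11 (r = -0.912) and Lgals1 (r = -0.898). Ddc was lower by -3.30 ± 0.48 (limma adjusted p = 0.000897) and Slc34a3 by -2.15 ± 0.34 (limma adjusted p = 0.00159) at 10 mg/kg over 2 mg/kg in tubules, on either side of the -2.63 of Add3.

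Actn4 had lower likeness to any gene. Lpcat3, a phospholipid remodelling enzyme gene (r = 0.882), Vps52, a vesicle tethering gene (r = 0.881), and Rbm47, an RNA-binding protein gene (r = 0.845), came nearest, and Bzw2 (r = -0.765) and Ugcg, the glucosylceramide synthase gene (r = -0.738), were least like it. Lpcat3 repeated the split of the tubule arrays, with 12.82, 13.19 and 13.94 after saline, 13.72, 13.65 and 12.81 after 2 mg/kg and 12.74, 12.34 and 13.45 after 10 mg/kg. Its 4 highest tubule arrays were the 4 with high Actn4. The split was not particular to these genes, since Slc22a6, a proximal tubule marker, had the same arrays high within each tubule group. It had 17.34, 17.27 and 18.14 after saline and 17.56, 17.78 and 16.83 after 2 mg/kg. After 10 mg/kg it had 14.64, 14.84 and 15.66. Cubn and Anpep ran the same way, while Slc3a1 and Fbp1 were highest in saline tubule replicate 1 within that group. The member Epb41l3 also had these arrays highest within saline and 2 mg/kg tubules, but after 10 mg/kg its replicate 3 was lowest.

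Few other genes of the same structures could be named. Of 28 listed membrane skeleton genes 2 had a named probe, Epb41l3 and Add3 themselves, and of 44 listed actin crosslinking and filament genes 1 did, Actn4. Of 18 listed microvillus genes Espn and Pdzk1 were named, and of 14 listed junction genes Cdh2 and Cdh16. All named probes belong to the 1219 of the authors' series table, whose rule of choice is unknown here, so the counts are not independent evidence of a direction. Fitted on its own, that table had 774 of 1219 probes called lower at 10 mg/kg over saline in tubules and 537 in whole kidneys. Falls were thus far more common among its probes than the shares of all probes given below.

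In tubules 2 of 2 junction genes fell at 10 mg/kg over saline, where 3.36% of all probes were called lower and the median over all 26601 probes was 0.03. Cdh2, the N-cadherin gene, had -1.93 ± 0.35 (limma adjusted p = 0.00429) and Cdh16, the kidney-specific cadherin gene, -1.64 ± 0.31 (limma adjusted p = 0.00574). Both also fell against 2 mg/kg. In whole kidneys Cdh2 fell by 3.38, with an SE of 0.35 (limma adjusted p = 0.000154), a signal 10.4-fold lower, while Cdh16 stood at -0.09 ± 0.31 (limma adjusted p = 0.917). At 2 mg/kg over saline Cdh2 stood at -0.01 ± 0.35 and Cdh16 at 0.19 ± 0.31, and neither passed.

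Of 2 microvillus genes 1 fell in tubules at 10 mg/kg over saline, where 3.36% of all probes were called lower, and 2 fell in whole kidneys, where 3.53% were. Pdzk1, a scaffold gene of brush border transporters, had -1.72 ± 0.27 in tubules (limma adjusted p = 0.00172) and -1.26 ± 0.27 in whole kidneys (limma adjusted p = 0.0130). Espn, which encodes the actin bundling protein espin, had -0.72 ± 0.45 in tubules (limma adjusted p = 0.495) and -2.39 ± 0.45 in whole kidneys (limma adjusted p = 0.00570). Espn ran opposite to Epb41l3 and Add3 between the tissues after saline, at 10.93, 11.22 and 11.64 in tubules against 13.68, 13.60 and 13.90 in whole kidneys. Its 10 mg/kg pair did not pass, at -0.80 ± 0.45 for tubules over whole kidneys (limma adjusted p = 0.316).

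The 12 named proximal tubule markers give the setting for the falls of Add3 in tubules. At 10 mg/kg over saline 10 of 12 fell, with a median of -2.34, where 3.36% of all probes were called lower. At 10 mg/kg over 2 mg/kg 10 of 12 fell, with a median of -2.51, where 3.77% were. In the series table, which holds all named probes, 774 and 784 of 1219 probes were called lower when fitted on their own. Falls were thus common in the pool that these markers came from. Add3, at -2.05 and -2.63, and Epb41l3, at -1.64 and -1.84, lay within the range of the 12 markers, -3.46 to -0.87 and -4.57 to 0.41. The upper end of both ranges is Slc22a7, which was dim in tubules. Slc4a4, at -1.545 and -1.689, also lay above both members. Neither member was thus set apart from these markers by the size of its difference at 10 mg/kg.

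**Figure D4:**
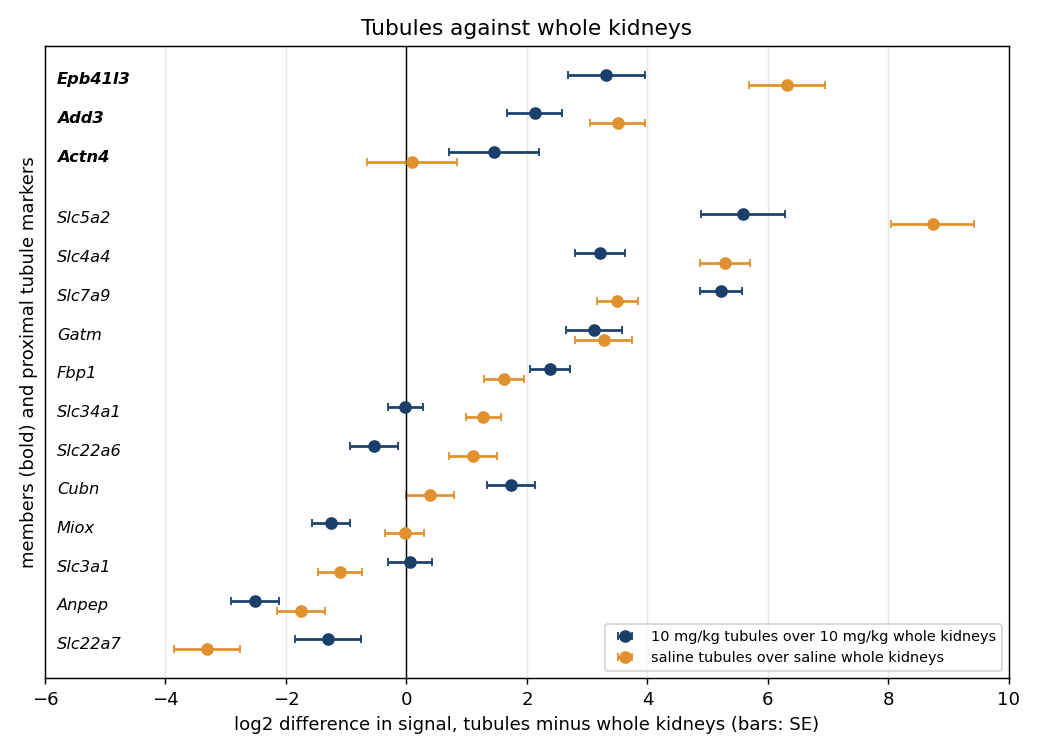
The horizontal axis is the log2 difference in signal of tubules minus whole kidneys, after 10 mg/kg (dark) and after saline (orange), with the SE as bars, for the 3 members in bold and 12 proximal tubule markers below them. Epb41l3 lies at 3.32 after 10 mg/kg and 6.31 after saline, and the markers spread from below -2 to above 5 in both pairs.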

How the data were processed

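Cisplatin-treated and control rat tubules and kidneys were measured on 15 1-colour arrays, 3 per group, grouped by the titles in the labels. Per the file headers, the authors deposited a linear intensity for each probe, array by array. Files listed 26207 to 26547 of 26857 probes. Scanner software and background correction are not stated in the labels. The authors also deposited a table of 1219 probes holding a ratio, each signal divided by 1 constant per array. Symbols came from the platform's annotation (401 probes with 1 symbol, 2 with several, 26454 with none), and all 401 matched RefSeq GRCr8 by Entrez identifier.

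Intensities were taken to log2 and quantile normalized with limma 3.58.1 in R 4.3.3. No background correction was made, since no background column was used here, and dim probes were kept. The 26601 probes with 2 or more values per group (256 were left out) were fitted over all 15 arrays with a mean per group, eBayes (10 residual and 3.92 prior degrees of freedom), two-sided tests and Benjamini-Hochberg adjustment over all tested probes at 0.05. Precision is limited by the number of arrays. The fit was tested on simulated data. Members and lists were chosen with earlier results of these data known. Named genes were the members, listed genes with a probe, and the 3 most and 2 least correlated named genes per member. Chromosomes, intervals and promoters are from RefSeq GRCr8, and protein sequences were not used here. Replicate numbers in the titles did not pair the arrays. Alternatives were other scalings, array weights, an intensity trend, 2 probe filters, the series table, a replicate block, the compared groups alone and leaving out each array.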

Additional observations from a re-analysis of the deposited data

How the results depend on the processing

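For each member and comparison 9 other settings and the omission of each array in turn were run, and results not named here or in the report kept their direction and their side of the threshold. Without scaling, the differences of all probes shifted by a median of -0.34 for 10 mg/kg over saline in tubules, -0.10 for 2 mg/kg over saline, -0.21 for 10 mg/kg over 2 mg/kg, 0.59 and 0.32 for tubules over whole kidneys after saline and after 10 mg/kg, and -0.29 for the difference in effect. Epb41l3 passed for 10 mg/kg over saline in tubules without scaling (-2.33) and with the series table (-1.96), and for 10 mg/kg over 2 mg/kg with median centring (-2.17), no scaling (-2.42), array weights (-2.05), an intensity trend (-1.84), the series table (-2.18) and the compared groups alone (-1.84). Its difference in effect, which contains the saline pair that chose it and so is no test, was -2.99 with an intensity trend and -3.12 with the series table. Actn4 passed in tubules over whole kidneys after 10 mg/kg with the series table (1.68), and Add3 did not with the compared groups alone (2.13). Without scaling the saline pair moved to 7.18 for Epb41l3 and 4.37 for Add3. Array weights turned the sign of Actn4 for 10 mg/kg over saline in tubules (0.12) and in the saline pair (-0.037). So did leaving out 1 array, at 0.66, 0.20 and 0.19 without saline tubule replicate 3 and 10 mg/kg tubule replicates 1 and 2, and at -0.66 and -0.05 in the saline pair without saline tubule replicate 3 and saline kidney replicate 2, with ranges of -0.70 to 0.66 and -0.66 to 0.67. Epb41l3 turned to -0.075 for 2 mg/kg over saline without saline tubule replicate 1, in a range up to 0.46. With 1 array left out, Add3 ranged between -2.21 and -1.86 for 10 mg/kg over saline in tubules and between -1.33 and -0.32 in whole kidneys. The causes were not tested.

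Counts of called probes depended more on the setting. For 10 mg/kg over saline in tubules 1553 probes were called (659 higher, 894 lower), against 1078 with median centring (341 higher, 737 lower), 917 without scaling (129 higher, 788 lower), 967 with the series table and 656 with the compared groups alone, and 994 to 1188 with 1 array left out. For 2 mg/kg over saline the series table gave 23, and omissions 0 to 1. For 10 mg/kg over 2 mg/kg there were 1711 (707 higher, 1004 lower), against 1325 with median centring (352 higher, 973 lower), 1010 without scaling (142 higher, 868 lower), 3395 with array weights, 956 with the series table, 1098 with the compared groups alone and 951 to 1488 with 1 array left out. In whole kidneys there were 1717 (779 higher, 938 lower), against 675 with median centring, 356 without scaling (107 higher, 249 lower), 2653 with an intensity trend, 749 with the series table, 522 with the compared groups alone and 1175 to 1392 with 1 array left out. In the saline pair there were 954 (565 higher, 389 lower), against 797 with median centring (558 higher, 239 lower), 1315 without scaling (1245 higher, 70 lower), 1659 with an intensity trend, 406 with the series table, 293 with the compared groups alone and 567 to 794 with 1 array left out. For tubules over whole kidneys after 10 mg/kg there were 2813 (1557 higher, 1256 lower), against 1550 with median centring (1071 higher, 479 lower), 1248 without scaling (1061 higher, 187 lower), 450 with the series table, 977 with the compared groups alone and 1814 to 2481 with 1 array left out. The difference in effect had 10, against 2 with median centring, 2 without scaling, 16 with array weights, 304 with an intensity trend, 29 without the dimmest probes, 176 with the series table, 0 with the compared groups alone and 0 to 16 with 1 array left out.

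Same-numbered arrays of different groups did not deviate together, with a median r of 0 over 30 pairs (-0.144 to 0.133) against 0.001 over 60 differently numbered pairs. With the replicate number as a block no member's call changed (Epb41l3 in whole kidneys 1.35, limma adjusted p = 0.279), and the count for the difference in effect was 0.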
